A study of Homo sapiens with 6 samples.

Results

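The genes of the serotonin system were examined in H460 cells after exposure to fluoxetine, a selective serotonin reuptake inhibitor whose classical target is the serotonin transporter. The group holds 6 genes, chosen by name from the classical drug target and the receptor and turnover genes of serotonin, and all 6 had a row among the 31762 genes of the count table. They are SLC6A4 (the serotonin transporter), HTR1D and HTR7 (serotonin receptors), DDC (aromatic L-amino acid decarboxylase), and MAOA and MAOB (the monoamine oxidases). H460 is an established human cell line from a large cell carcinoma of the lung, labelled as wild type. RNA was sequenced from 3 libraries of control cells and 3 libraries of cells exposed to 20 µM fluoxetine for 24 h, all grown in the same serum-containing medium. The labels do not say whether the 3 libraries of a group came from separate cultures, so p-values measure the spread between these libraries, which may be technical. What the control cells received in place of the drug is not given in the labels.

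Serotonin is made from tryptophan by a tryptophan hydroxylase and then by the decarboxylase DDC, and is packed into vesicles and released by neurons, by enterochromaffin cells of the gut and by neuroendocrine cells of the airway. The transporter SLC6A4 carries released serotonin back into cells. The mitochondrial enzymes MAOA and MAOB oxidise it to an aldehyde, and MAOA has the higher affinity for serotonin. HTR1D and its close relative HTR1B couple to inhibitory G proteins that lower cyclic AMP, whereas HTR7 couples to stimulatory G proteins that raise it.

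The reads counted on genes numbered between 16157507 and 27823667 per library, and each fluoxetine library held fewer than each control library. At these depths 3 counts, the limit that a count of 0 allows, were worth 0.108 to 0.182 CPM (counts of a gene scaled to the size of its library after TMM normalization), which covers counting error only. Of the 6 epithelial marker genes, the keratins KRT8, KRT18 and KRT19 were abundant, with mean levels between 311.6 and 1844 CPM in either group. The keratin KRT7, in contrast, had 11 to 20 counts per library. CDH1 and EPCAM, which define most epithelial cells, had at most 1 and 11 counts in any library. KRT18 fell with fluoxetine from 511.5 ± 45.0 to 311.6 ± 39.2 CPM (SD, n = 3, adjusted p = 0.00162 from edgeR). Of the 10 markers of leukocytes, platelets, fibroblasts and endothelium, 3 had no row, and the others had at most 8 counts in any library apart from COL1A1 (59 to 118 counts) and COL3A1 (193 to 550 counts). COL3A1 fell with fluoxetine from 18.3 to 12.7 CPM, or by 0.53 on the log2 scale (adjusted p = 0.0145 from edgeR), a call lost without fluoxetine replicate 1 (adjusted p = 0.0855). RNA from bulk cells cannot tell apart fewer cells that express a gene and less RNA per cell.

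The sequences before the start of 4 of the genes are shown because they stand at both ends of the group's levels per kilobase of exon: MAOA and HTR1D gave nearly all counts of the group, while MAOB, the neighbour and relative of MAOA, and SLC6A4, the drug target, gave almost none. Each is the 250 bases before the RefSeq start (GRCh38.p14), 5′ to 3′ on the strand of the gene, and capitals mark the GC box GGGCGG on either strand, the motif to which Sp1 family factors bind. The MAOA sequence is at chrX:43656049-43656298 on the plus strand, MAOB at chrX:43882451-43882700 on the minus strand, HTR1D at chr1:23217503-23217752 on the minus strand and SLC6A4 at chr17:30235698-30235947 on the minus strand. Those of MAOA and SLC6A4 lie within the gene as the count table places it, whose first annotated base is further upstream, so they precede the RefSeq start and not the start of the counted gene.
MAOA: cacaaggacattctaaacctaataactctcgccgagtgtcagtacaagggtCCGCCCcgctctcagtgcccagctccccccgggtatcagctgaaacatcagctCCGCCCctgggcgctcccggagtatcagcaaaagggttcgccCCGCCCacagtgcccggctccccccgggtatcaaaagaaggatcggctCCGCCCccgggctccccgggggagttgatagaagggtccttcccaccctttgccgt
MAOB: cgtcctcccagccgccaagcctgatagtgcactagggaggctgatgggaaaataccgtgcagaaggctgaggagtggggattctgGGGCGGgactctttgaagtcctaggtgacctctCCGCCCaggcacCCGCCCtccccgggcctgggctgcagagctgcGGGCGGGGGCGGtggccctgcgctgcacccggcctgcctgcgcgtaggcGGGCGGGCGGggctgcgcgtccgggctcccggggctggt
HTR1D: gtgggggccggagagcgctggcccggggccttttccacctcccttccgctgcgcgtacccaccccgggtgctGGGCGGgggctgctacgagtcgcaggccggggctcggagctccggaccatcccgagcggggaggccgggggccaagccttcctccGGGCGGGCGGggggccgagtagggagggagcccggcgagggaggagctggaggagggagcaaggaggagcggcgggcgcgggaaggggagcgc
SLC6A4: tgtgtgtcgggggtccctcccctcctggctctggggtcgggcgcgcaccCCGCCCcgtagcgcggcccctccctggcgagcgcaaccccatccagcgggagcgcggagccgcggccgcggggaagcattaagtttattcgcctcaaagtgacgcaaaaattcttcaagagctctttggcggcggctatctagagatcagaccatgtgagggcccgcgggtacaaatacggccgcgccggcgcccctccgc
The GC box occurred 4 times before MAOA, 7 times before MAOB, 3 times before HTR1D and once before SLC6A4, counting overlapping matches, and 42.6% of the 35116 promoters of the same length held it at least once. The barely counted MAOB thus had more matches than MAOA. HTR7 had 2 matches and DDC none (0). No TATAAA or CACGTG was found on either strand before any of the 6 genes, and SLC6A4 alone held TGACG, the core of the cyclic AMP response element, which 21.2% of promoters held. The G and C content of the 250 bases was lowest for DDC, at 42.4%, and between 63.2% and 81.2% for the other 5 genes, against a median of 58.0% over all promoters.

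SLC6A4, the transporter that fluoxetine inhibits, was barely detected. The gene (ENSG00000108576) spans bases 30194319 to 30236002 of chromosome 17, minus strand in GRCh38, with 6983 exonic bases. Control replicates 1, 2 and 3 gave 1, 3 and 4 reads on it, while fluoxetine replicates 1, 2 and 3 gave 0, 2 and 5. These counts correspond to 0.115 ± 0.0608 CPM without the drug and 0.137 ± 0.146 CPM with it (SD, n = 3). The lowest and the highest level were both in the fluoxetine group, so the groups overlapped and their order was not resolved. The ratio of the summed counts, fluoxetine over control and corrected for depth, was 1.20, with an exact 95% counting interval of 0.369 to 3.78, and the exact two-sided permutation test gave p = 1.0, where 3 libraries against 3 cannot give less than 0.1. Its level per kilobase of exon was at the 12.2 percentile of the 16575 protein-coding genes in the table. An antisense gene within SLC6A4, AC104984.1, was counted once, in control replicate 1.

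The receptor HTR1D was one of the 2 members with enough counts to be tested. The gene (ENSG00000179546) is annotated in GENCODE release 29, which has the same position as the table, as a single exon of 2835 bases at bases 23191895 to 23194729 of chromosome 1, minus strand. The RefSeq start used for the sequence above lies 22773 bases upstream of this exon, so any exon nearer to that start was not in the count. Control replicates 1, 2 and 3 gave 120, 124 and 158 reads on HTR1D, while fluoxetine replicates 1, 2 and 3 gave 104, 133 and 134, which after normalization are 5.44, 6.46 and 5.69 CPM against 6.31, 7.91 and 7.80 CPM. Fluoxetine replicates 2 and 3 were above all controls, whereas fluoxetine replicate 1 was below control replicate 2. The means were 5.86 ± 0.530 and 7.34 ± 0.892 CPM (SD, n = 3). The fitted log2 fold change was 0.33 with a 95% interval from -0.0022 to 0.66 and a standard error of 0.15, and edgeR's quasi-likelihood test gave an adjusted p = 0.177 over 15646 tested genes. The test thus did not pass the threshold, and its interval ran from no difference to a level 1.58 times as high. Of all tested genes, 27.8% had a larger log2 fold change in either direction, and the log2 fold change of HTR1D lay between 0.24 and 0.40 over 14 other ways of processing the counts. The unadjusted p was under 0.05 in 3 of these (the fit by library size alone, the replicate block and the fit without fluoxetine replicate 1), and the adjusted p stayed between 0.107 and 0.474.

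HTR1B, which pairs with HTR1D as the other inhibitory receptor with enough counts, offers a comparison within each library that needs no normalization. It was chosen for this after its values were seen. HTR1B was counted 133, 132 and 157 times in the control libraries and 96, 86 and 98 times in the fluoxetine libraries, and its log2 fold change was -0.15 (95% interval -0.48 to 0.17, adjusted p = 0.559 from edgeR). For each count of HTR1B, control replicates 1, 2 and 3 held 0.902, 0.939 and 1.01 counts of HTR1D, whereas fluoxetine replicates 1, 2 and 3 held 1.08, 1.55 and 1.37. The ratio was higher in 3 of 3 fluoxetine libraries than in any control library, by 0.48 on the log2 scale, and the exact two-sided permutation test gave p = 0.1, the smallest value that 3 against 3 allows. As the pair was picked with these values known, the separation and its p describe these libraries and test no shift between the receptors. How often other pairs of genes separate in this way was not counted.

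**Figure D1:**
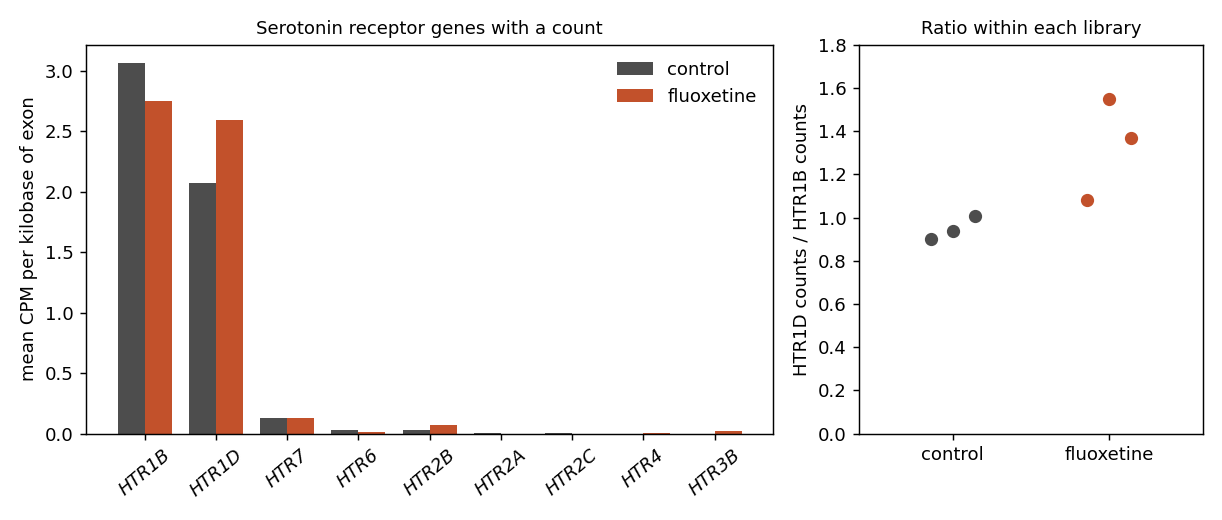
Left, mean level in CPM per kilobase of exon (3 libraries per group, bars) of the 9 serotonin receptor genes with a count, in control and fluoxetine-treated cells; right, counts of HTR1D divided by counts of HTR1B, one point per library. HTR1B and HTR1D stand far above the other receptors, and the 3 fluoxetine ratios (1.08 to 1.55) lie above the 3 control ratios (0.902 to 1.01). The pair was chosen after its values were seen.

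HTR7, the stimulatory receptor of the group, was transcribed at a low level with a wide spread. The gene (ENSG00000148680) spans bases 90740823 to 90857698 of chromosome 10, minus strand, and its 3131 exonic bases are 2.68% of its span. Control replicates 1, 2 and 3 gave 7, 5 and 17 reads and fluoxetine replicates 1, 2 and 3 gave 2, 8 and 10, or 0.397 ± 0.189 and 0.393 ± 0.241 CPM (SD, n = 3). Control replicate 3 was the highest and fluoxetine replicate 1 the lowest, and between them control replicates 2 and 1 lay below fluoxetine replicates 2 and 3, so the groups overlapped only through these extremes. The ratio of summed counts was 0.943 (exact 95% counting interval 0.506 to 1.73, exact permutation p = 1.0), and its direction turned without control replicate 3 or without fluoxetine replicate 1. HTR7 did not pass the filter on low counts, so it has no p-value from the fit over all genes.

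DDC, the decarboxylase of the last step of serotonin synthesis, was close to undetected, with 2, 0 and 7 reads from control replicates 1, 2 and 3 against 1, 0 and 3 from fluoxetine replicates 1, 2 and 3. The gene (ENSG00000132437) spans bases 50458436 to 50565457 of chromosome 7, minus strand. A single library, control replicate 3, exceeded 3 counts, and it was also the most deeply sequenced one. The levels were 0.114 ± 0.128 CPM without the drug and 0.0785 ± 0.0887 CPM with it (SD, n = 3), the groups overlapped, and the ratio of summed counts was 0.608 with an exact 95% counting interval of 0.137 to 2.18 (exact permutation p = 0.7). Without control replicate 3 the direction turned. FIGNL1, a gene of DNA repair, overlaps DDC on the same strand and had 271 to 551 counts per library, so the few counts of DDC are uncertain at the shared positions. The hydroxylases that act before DDC were as low, with at most 6 counts of TPH1 and 3 of TPH2 in any library.

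MAOA was the most counted gene of the group, with 1427 of the counts over all libraries. The gene (ENSG00000189221) spans bases 43654907 to 43746824 of chromosome X, plus strand and has 5528 exonic bases. Control replicates 1, 2 and 3 gave 254, 196 and 324 reads and fluoxetine replicates 1, 2 and 3 gave 216, 219 and 218, which are 11.5, 10.2 and 11.7 CPM against 13.1, 13.0 and 12.7 CPM. All fluoxetine libraries lay above all control libraries, a separation in this direction found for 17.5% of all tested genes. The fluoxetine libraries also lay closer together, with a spread smaller than counting error usually leaves, so their SD is likely too small. The means were 11.1 ± 0.803 and 12.9 ± 0.222 CPM (SD, n = 3). The fitted log2 fold change was 0.21 with a 95% interval from -0.037 to 0.47 and a standard error of 0.11, and the same edgeR test gave an adjusted p = 0.247. The difference did not pass the test, and its interval ended at a level 1.38 times as high. The log2 fold change stayed between 0.12 and 0.24 over the 14 alternatives, with the lowest value when control replicate 2, the lowest library, was left out.

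MAOB (ENSG00000069535) spans bases 43766611 to 43882447 of the same chromosome, minus strand, so that both oxidase genes point towards each other with 19786 bases between their ends. It was counted once, in control replicate 3, and 0 times in each of the other 5 libraries, a level at or under the limit of 3 counts in every library, for which no fold change is given. Per kilobase of exon, MAOA was at least 34.2-fold higher than MAOB in each of the 5 libraries without a MAOB count, taking 3 counts per library as the bound, and 169 times as high in control replicate 3 (exact 95% counting interval 30.2 to 6713). MAOA was thus the only oxidase detected above this limit in either group.

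**Figure D2:**
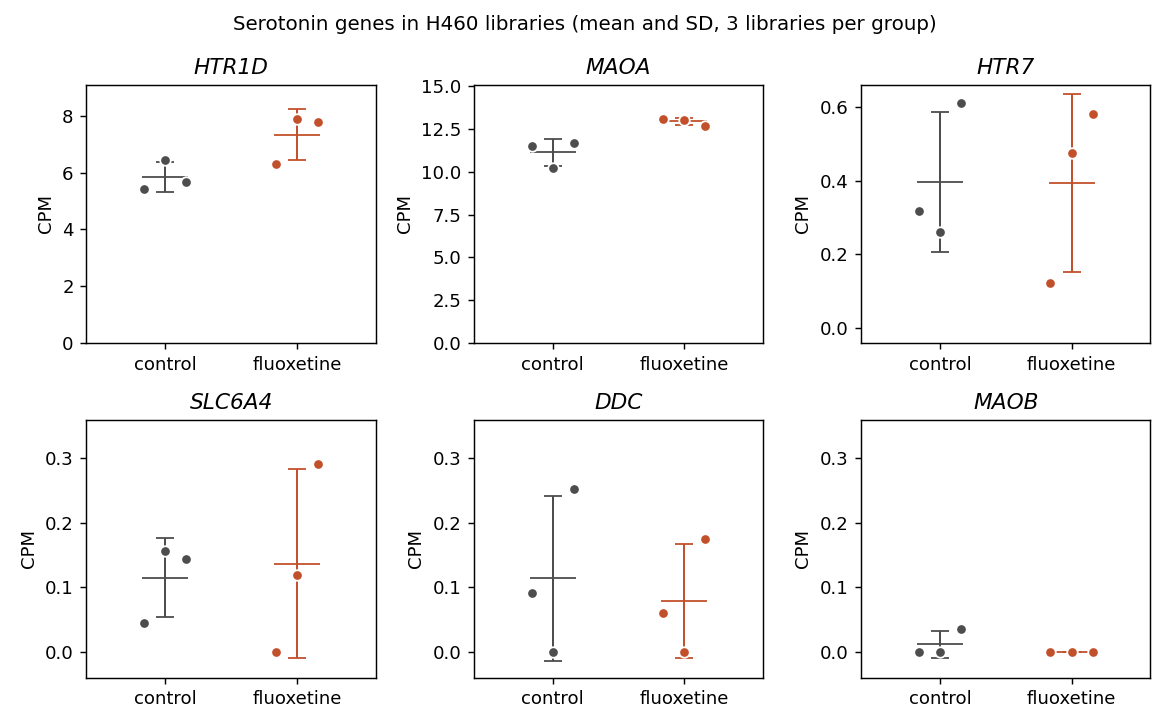
Level in CPM of the 6 genes in each library (points), with the mean and SD of 3 libraries per group (bars), in control and fluoxetine-treated H460 cells. HTR1D and MAOA lie between 5.44 and 13.1 CPM and the other 4 genes at most at 0.612 CPM. MAOA is the gene whose groups do not overlap, a separation in this direction found for 17.5% of all tested genes. MAOA was not called (adjusted p = 0.247 from edgeR).

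Compared per kilobase of exon, the order of the genes was the same in both groups: HTR1D, MAOA, HTR7, DDC, SLC6A4 and MAOB. HTR1D (2.07 ± 0.187 CPM per kilobase) and MAOA (2.01 ± 0.145) overlapped in control cells and again after fluoxetine, at 2.59 ± 0.315 and 2.34 ± 0.0401 CPM per kilobase (SD, n = 3), so their order is not resolved. Both were near the middle of the protein-coding genes in the table, at the 50.0 and 48.9 percentiles. HTR7 was lower than both in every library, at 0.127 ± 0.0603 and 0.126 ± 0.0771 CPM per kilobase, and stood above DDC in control cells only, since the ranges met after fluoxetine. The ranges of DDC and SLC6A4 overlapped in both groups, as did those of SLC6A4 and MAOB.

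None (0) of the 2 tested members was called at an adjusted p under 0.05 by edgeR, and 0 were at an unadjusted p under 0.05, where 13.1% of all 15646 tested genes were called, 7.76% higher and 5.32% lower. DESeq2 and limma-voom also called 0 members. The other 4 members did not pass the filter on low counts and did not enter the main edgeR fit. The permutation tests of SLC6A4, HTR7 and DDC are given above. The genes whose log2 CPM followed HTR1D most closely over the 6 libraries were TRPC4AP, TCN2 and RRNAD1 (Pearson's r between 0.983 and 0.995 among 11789 protein-coding genes of at least 1 CPM). MAOA was followed by HELQ, GIPR and NFIL3 (r between 0.988 and 0.996). With 6 libraries in 2 groups that differ in depth, such values are a description, and 103 genes had an r over 0.9 with HTR1D and 244 with MAOA.

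Around these genes, 69 further genes of the serotonin pathway were listed by role, of which 13 had no row, 21 were under the filter and 35 were tested. Of the tested genes 6 rose and 1 fell, or 20.0% beside 13.1% of all tested genes, with a median log2 fold change of 0.03, beside 0.03 over all tested genes. These counts rest on few libraries: 2 rose without control replicate 2, fluoxetine replicate 1 or fluoxetine replicate 3 and 3 without control replicate 1, while 6 fell without control replicate 3, 3 without fluoxetine replicate 2 and 0 without fluoxetine replicate 1. Among the other 15 receptor genes, HTR1B was the single one tested, 8 had no row and 6 had at most 5 counts in any library. Of the genes for tetrahydrobiopterin, the cofactor of tryptophan hydroxylase, none (0) of the 5 tested (GCH1, PTS, SPR, QDPR and PCBD1) was called, and the most abundant, PCBD1, had a log2 fold change of -0.099. Of the monoamine transporters other than SLC6A4, SLC29A4, a low-affinity carrier of serotonin, was the single one tested, at -0.22 on the log2 scale (edgeR adjusted p = 0.735).

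Of the 4 tested genes besides MAOA in the list of breakdown and conversion, which includes enzymes that act on aldehydes such as the product of MAOA, 1 rose and 1 fell. AKR1A1, an aldehyde reductase, rose from 65.5 ± 3.94 to 98.1 ± 9.28 CPM (SD, n = 3), or by 0.58 on the log2 scale with a standard error of 0.090 (edgeR adjusted p = 0.00273). ALDH1B1, a mitochondrial aldehyde dehydrogenase, fell from 69.2 ± 2.46 to 52.5 ± 1.19 CPM (SD, n = 3), with -0.40 ± 0.076 (standard error) as its log2 fold change (edgeR adjusted p = 0.00791). All fluoxetine levels of AKR1A1 lay above all control levels, a separation in this direction found for 17.5% of all tested genes. Those of ALDH1B1 lay below all control levels, and the share of genes separated in that direction was not counted. ALDH1A1 (log2 fold change -0.068) and ALDH2 (0.13) did not pass. In the kynurenine branch, which uses tryptophan that is not made into serotonin, 2 of 7 tested genes were called, or 28.6% beside 13.1% of all tested genes. QPRT rose 4.61-fold from 4, 6 and 5 to 13, 23 and 16 counts (adjusted p = 0.00782 from edgeR). It passed the filter on low counts only through the fluoxetine libraries, where it was high, so its call is given as a description. KYNU rose 1.26-fold from a high level (adjusted p = 0.00977 from edgeR). The other 5 tested genes, the tryptophan carrier subunits SLC7A5 and SLC3A2 among them, were not called. All 5 had negative log2 fold changes, with AFMID the lowest at -0.34 (adjusted p = 0.0572 from edgeR), and the median of the list was -0.09. Of the 17 tested receptor partners and cyclic AMP genes, 3 were called, or 17.6% beside 13.1% of all tested genes. The phosphodiesterases PDE4B and PDE4D, which degrade cyclic AMP, rose by 0.40 and 0.32 on the log2 scale (adjusted p of 0.0137 and 0.0263 from edgeR). PRKAR1A, a regulatory subunit of protein kinase A, rose by 0.28 on the log2 scale (adjusted p = 0.0479 from edgeR). These 3 calls were lost without control replicate 1 or 2 or without fluoxetine replicate 1 or 3 (adjusted p from edgeR of 0.0656 to 0.213), and that of PRKAR1A also without fluoxetine replicate 2 (adjusted p = 0.108). The call of KYNU was lost without control replicate 2 or without fluoxetine replicate 1 or 3 (adjusted p of 0.0644 to 0.0829), and that of ALDH1B1 without fluoxetine replicate 1 (adjusted p = 0.0571).

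**Figure D3:**
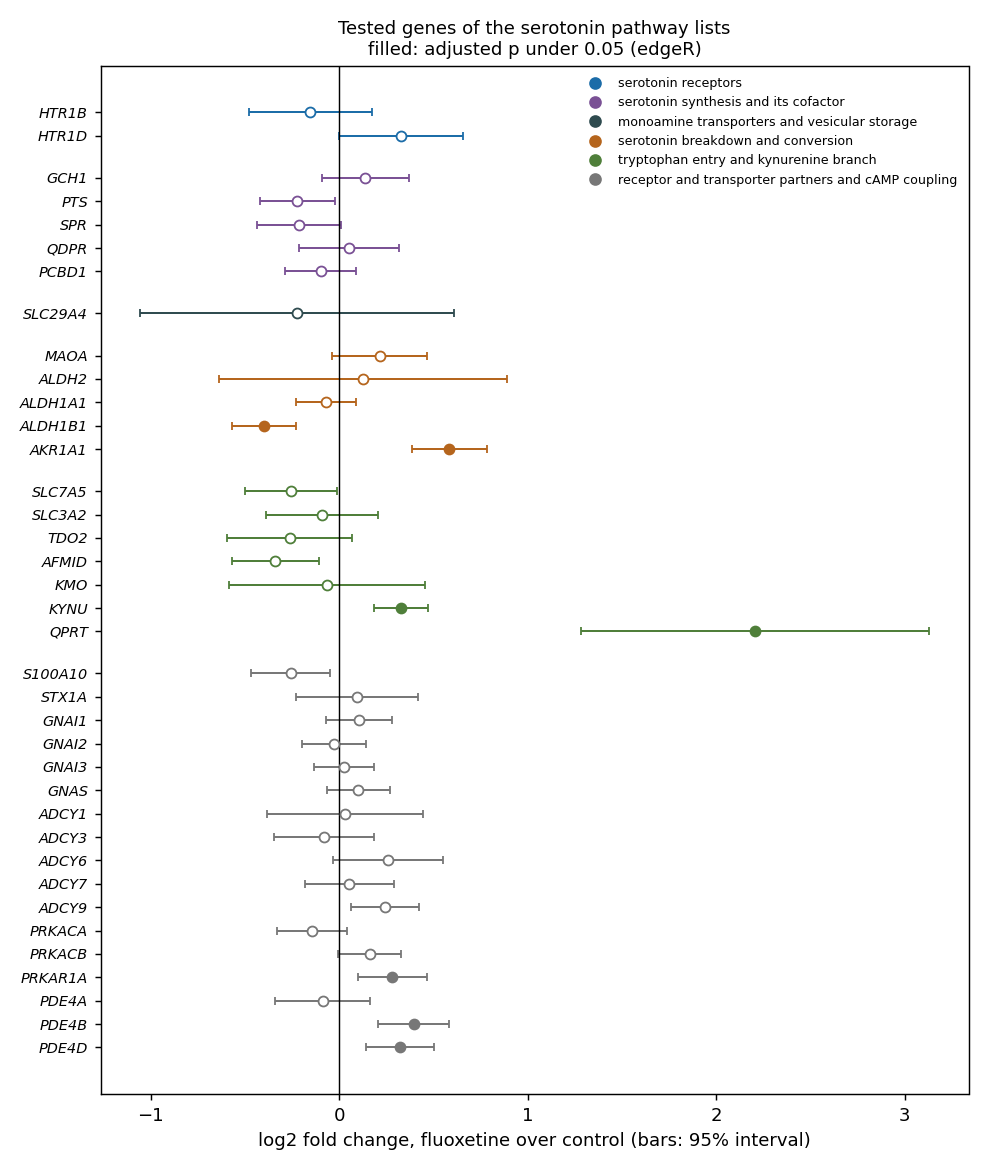
Log2 fold change of fluoxetine over control with its 95% interval from edgeR for the 37 tested genes of the serotonin pathway lists, coloured by list, filled where the adjusted p is under 0.05. The intervals of HTR1D and MAOA reach 0. QPRT, which passed the filter on low counts only through the fluoxetine libraries, has the largest value, 2.20.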

How the data were processed

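RNA-seq counts of H460 cells were analysed for 3 control libraries and 3 libraries treated with 20 µM fluoxetine for 24 h, grouped by the deposited treatment label. The authors deposited raw counts per gene, without normalization or pooling, and the submitters' processing notes name fastp 0.20.0, HISAT2 2.1.0, HTSeq 0.10.0 and DESeq2 1.18.1. Strand setting, build and annotation are not given in the sources used here. Of 31762 genes, 31635 are in GENCODE release 29 (GRCh38), 96.8% of them at the same start and end. The deposited table also holds the authors' log2 fold change and p-value columns of their own comparison, which were not used.

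Counts were tested with edgeR 4.0.16 in R 4.3.3 (glmQLFit and glmQLFTest, TMM, filterByExpr, Benjamini-Hochberg over 15646 tested genes), with DESeq2 1.42.0 and limma-voom (limma 3.58.1) as alternatives. Intervals of log2 fold changes used the standard error and degrees of freedom of that test. Genes under the filter were described by the ratio of summed counts with an exact (Clopper-Pearson) counting interval at 95% and by an exact permutation test of CPM. Levels between genes were divided by the length of all exons in GENCODE 29. Pathway gene lists were written by hand from general knowledge, and the members and lists were chosen with earlier results of these data known. Named genes are all members, the list genes called at an adjusted p under 0.05 (a list without one is given by its most abundant tested gene), and the 3 protein-coding genes of at least 1 CPM with the highest correlation with each tested member. Others are described by counts or were named after their values were seen. Promoter sequences are from RefSeq (GRCh38.p14) and were found for all 6 members. Pairs of libraries within a group differed by a chi-square per degree of freedom of 3.69 to 25.2, more than the sampling noise, and pairs across the groups by 22.7 to 52.5. Control replicates 1 and 3 (25.2) thus differed more than the closest pair across the groups, control replicate 2 and fluoxetine replicate 2. All libraries were kept. The scripts were tested on simulated data. Some listed genes are not reported here.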

Additional observations from a re-analysis of the deposited data

How the results depend on the processing

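Neither HTR1D nor MAOA was called, or changed direction, under any of 14 alternatives (0 members called in each). The direction of the genes with few counts did depend on single libraries. The log2 ratio of summed counts of HTR7 was -0.084, and it became 0.45 without control replicate 3 and 0.33 without fluoxetine replicate 1 (range -0.48 to 0.45 with each library left out in turn). That of SLC6A4 was 0.26, and became -0.10 without control replicate 1 and -0.95 without fluoxetine replicate 3 (range -0.95 to 0.83). That of DDC was -0.72, and became 0.71 without control replicate 3 (range -2.12 to 0.71). The genes called over the whole table numbered 2047, 4018 with the replicate block, and 572 (without fluoxetine replicate 1) to 3633 (without control replicate 3) with each library left out in turn. With a fold change of at least 2 the count was 218, and 149 to 277 with each library left out. Of the further pathway genes, 6 were called higher, and 2 to 6 with each library left out. The 1 called lower became 2 with RLE size factors, with DESeq2 and with each library thinned to the smallest total, 4 without a filter and with the replicate block, and 0 (without fluoxetine replicate 1) to 6 (without control replicate 3) with each library left out. PRKAR1A lost its call in 7 of 14 alternatives, PDE4B and PDE4D in 4 each, KYNU in 3 and ALDH1B1 in 1, while AKR1A1 kept it in all 14. QPRT, which passed the main filter only through the fluoxetine libraries, kept its call in all 12 that gave it an adjusted p-value. DESeq2 gave it none, and the filter of at least 10 counts in every library removed it. COL3A1 and NCAM1, markers that are no members, lost theirs in 1 and 4. The cause of these changes was not tested. Same-numbered libraries of the 2 groups had correlations of their deviations of 0.03, 0.10 and 0.36. For control replicates 2 and 3 the best match in the fluoxetine group had the same number, and for control replicate 1 it did not. The labels give no pairing, so the main fit did not use the numbers, and whether they mark a pairing was not tested. With the replicate block HTR1D had an adjusted p of 0.107 and MAOA of 0.217 from edgeR. At 16157507 to 27823667 counts per library, differences in SLC6A4, DDC, HTR7 and MAOB were not detectable at this depth unless large.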

Other observations

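Serotonin is also a product of neuroendocrine cells, and H460 cells expressed part of that marker list. Of 10 neuroendocrine markers, 1 had no row, INSM1, a transcription factor of the lineage, had at most 5 counts in any library, and 7 were tested. Of these 7, 2 were called, or 28.6% beside 13.1% of all tested genes. CHGA, a protein of secretory granules, was at 54.3 CPM in control cells and 50.7 CPM after fluoxetine (log2 fold change -0.098), and SCG2, a granule protein too, had a log2 fold change of -0.12. ENO2, the neuronal enolase of glycolysis, rose from 13.1 ± 1.47 to 24.7 ± 0.714 CPM (SD, n = 3), or by 0.91 on the log2 scale (edgeR adjusted p = 7.53e-04). NCAM1, an adhesion molecule, rose by 0.47 on the log2 scale (adjusted p = 0.0140 from edgeR), a call lost without control replicate 1 or 2 and without fluoxetine replicate 1 or 3 (adjusted p from edgeR of 0.0618 to 0.0980). SYT1, SYP and CHGB were not called.

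The annotation in the deposited table assigns 97 genes to the serotonergic synapse, a list taken up after the data were seen. Of its 53 tested genes, 8 rose and 1 fell, or 17.0%, beside 13.1% of all tested genes. Those that rose were DUSP1, GNAQ, ITPR3, PTGS2, ITPR2, NRAS, APP and PRKCA. Of these, GNAQ, ITPR3, ITPR2 and PRKCA act in the phosphoinositide and calcium signalling below other serotonin receptors. Their log2 fold changes were 0.47, 0.47, 0.67 and 0.38 (adjusted p of 0.00453, 0.0134, 0.0280 and 0.0484 from edgeR). The phospholipase C genes PLCB1, PLCB3 and PLCB4 had log2 fold changes of 0.36, -0.29 and -0.33 and were not called. The receptor genes HTR2A, HTR2B and HTR2C had at most 5 counts in any library. PTGS2, an inducible cyclooxygenase, rose from 5.16 ± 0.592 to 8.09 ± 0.704 CPM (SD, n = 3, adjusted p = 0.0185 from edgeR). PLCB2, a phospholipase C, fell from 3.06 ± 0.548 to 1.76 ± 0.0858 CPM (SD, n = 3, adjusted p = 0.0377 from edgeR). Whether the calls of this list, those of GNAQ, ITPR3, ITPR2, PRKCA, PTGS2 and PLCB2 among them, hold with single libraries left out was not examined. These pathways serve many receptors besides those of serotonin, and their part in any response to serotonin was not tested.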
